A study of Rattus norvegicus with 28 samples.

Results

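Transcript levels of 10 genes that mark astrocytes at rest or in their reactive state were followed in the rat spinal cord after contusion and after transplantation of neural progenitor cells. The genes were Gfap, Vim, Aqp4, Gja1, Aldh1l1, Glul, S100b, Lcn2, Serpina3n and Cd44, chosen by gene name from the array's own annotation, and all 10 were found among the 35469 features measured. They were read by 16 of the array's 41012 probes. Vim, S100b, Gja1, Aldh1l1, Lcn2 and Serpina3n had 1 probe each, Gfap, Glul and Cd44 had 2, and Aqp4 had 4, and the probes of a gene were averaged.

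RNA came from adult female Sprague Dawley rats, 4 animals in each of 7 groups, and each animal's RNA was read on 1 single-dye (Cy3) array. The T0 animals were sham according to the labels and uninjured according to the paper. The T1, T2, T4 and T8 animals received a severe contusion of 250 kdyn at the level of thoracic vertebra 8, and 1.5 cm of cord that included the epicentre was taken 1, 2, 4 or 8 weeks later. In the T1_NPC group, neural progenitor cells (NPCs) were placed in the cord right after the contusion and tissue was taken at 1 week. In the T2_NPC group, the cells were placed 1 week after the contusion and tissue was taken at 2 weeks. The NPCs were grown as neurospheres from injured cords of adult rats, so donor and host were of the same species and the probes read the RNA of both. Transplanted animals received FK-506 (tacrolimus) at 1 mg/kg from the day before transplantation, and the injured controls of the study were injected with cell-free medium. The methods list the drug under the care of all operated animals, without saying which array groups received it. The label of the T2_NPC group names a shorter stretch of cord than the labels of the other groups.

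Astrocytes are the glial cells that take up glutamate and potassium, enclose blood vessels with their end-feet and are coupled to each other by gap junctions. After injury they become reactive: their cell bodies enlarge, they build up intermediate filaments, and near a lesion they form a border around the non-neural core. Markers of the resting cell (Aqp4, Gja1, Aldh1l1, Glul, S100b) and markers of reactivity (Vim, Lcn2, Serpina3n, Cd44) therefore describe different sides of the same cell, with Gfap belonging to both. Several of these transcripts are not exclusive to astrocytes: Vim is also made by fibroblasts, endothelium and macrophages, Cd44 by leukocytes, and Lcn2 by neutrophils.

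Levels are given as log2 values of the authors' quantile-normalized table, a scale on which a difference of 1 is a doubling and on which different probes cannot be compared with each other. A gene was said to rise or fall when limma's moderated test, fitted over all 35469 features and all 28 arrays, gave a Benjamini-Hochberg adjusted p under 0.05. The scanner software set 73.65% to 82.07% of an array's probes well above background. Among the 16 probes of the astrocyte genes, 15 passed that mark on every one of the 28 arrays, and none had a saturated spot. The 4 comparisons with T0 share the same 4 T0 arrays and are not independent of each other. With the tissue measured in bulk, fewer cells of a type and less RNA per cell cannot be told apart.

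The deposited scanner outputs and the value table disagree on the sample of 16 of the 28 arrays. The 12 undisputed arrays were T0 replicates 1 and 3, T1 replicate 1, T2 replicates 2 and 3, T4 replicate 4, T8 replicates 2 and 4, and all 4 of T2_NPC. The samples of the value table were used. With the scanner outputs kept under the samples they were deposited with, no astrocyte gene was called in any comparison by limma. At an unadjusted p under 0.05, 2 genes passed in T8 against T0, 1 in T2_NPC against T2, and 0 in each of the others. Hardly any feature was called in that setting: 0 or 1 of the 35469 in each comparison of the time course, 0 in T1_NPC against T1, 43 in T2_NPC against T2 and 4 in the difference between them, so these counts of 0 tell nothing particular to the astrocyte genes.

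Scan sessions, read from the scanner outputs matched to the table by rank order, split the time course: session 1 holds its 8 undisputed arrays and session 2 the other 12. T1_NPC and T2_NPC were scanned in session 3 and on slides of their own, so transplantation and scan session cannot be told apart. One array, T1_NPC replicate 2, stood apart from its group, with a mean correlation of 0.9711 with the other T1_NPC arrays against at least 0.9795 for every other array with its own group.

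Over the 10 genes, 5 rose and 2 fell at T1, where 19.1% of all features rose and 25.1% fell. At T2, 4 rose and 0 fell against 17.7% and 22.2% of all features. At T4, 5 rose and 0 fell against 17.5% and 21.0%, and at T8, 4 rose and 0 fell against 18.2% and 21.5%. The median log2 difference of the 10 genes was 0.57, 0.66, 1.11 and 0.94 at T1, T2, T4 and T8, and that of all features was -0.10, -0.06, -0.06 and -0.04. All 4 T0 arrays lay outside the range of the injured arrays for 7 genes in T1, 4 in T2 and 6 in both T4 and T8. Of all features, 41.1%, 37.0%, 37.5% and 38.6% were without overlap in this way. On the undisputed arrays alone, the number of the 10 genes called was 7, 3, 4 and 5 at the same times, and of all features 30.8%, 33.6%, 26.6% and 37.5% were called.

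**Figure D1:**
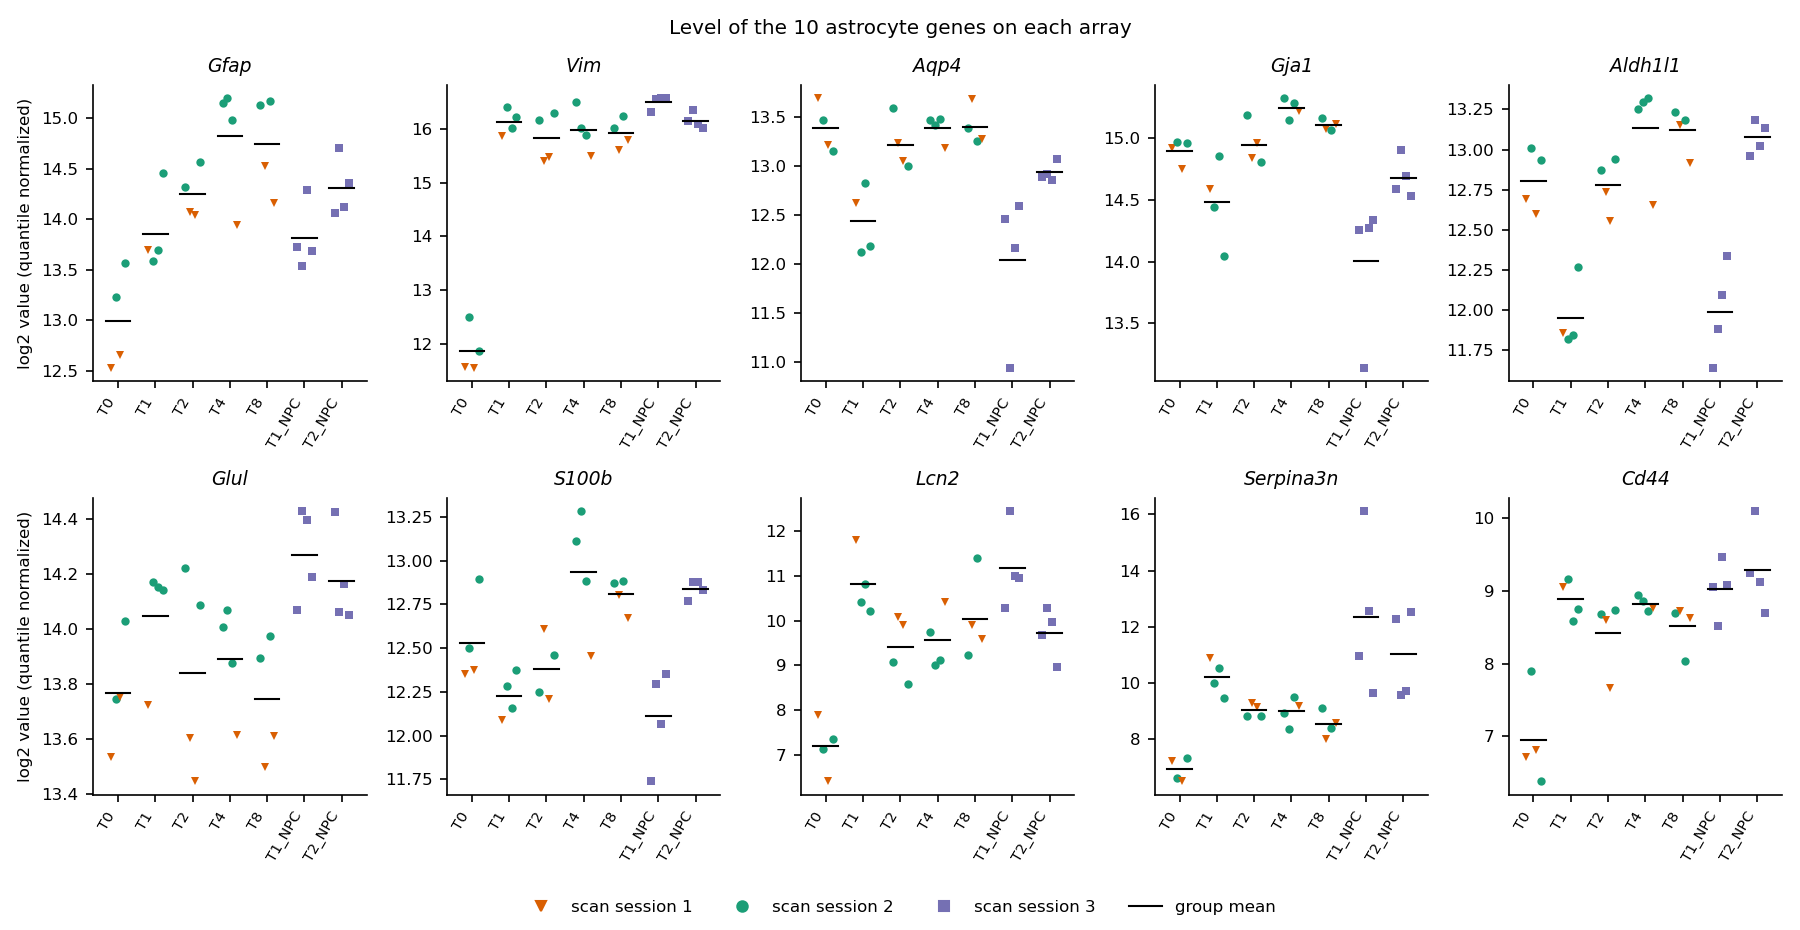
Log2 level of each of the 10 astrocyte genes on each of the 28 arrays, by group, with 1 panel a gene, 1 point an array (its symbol and colour giving the scan session) and a bar for the group mean; the vertical axes differ between panels. Vim, Lcn2, Serpina3n and Cd44 lay higher in the injured groups, Gfap climbed from a T0 mean of 13.00 to 14.82 at T4, and Aqp4 and Aldh1l1 were lowest in the 2 groups taken at 1 week.

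Gfap, the main intermediate filament protein of astrocytes, rose at all 4 times, with its largest differences from T0 at 4 and 8 weeks. The T0 arrays read 12.53, 13.23, 12.66 and 13.57. At T1 they read 13.69, 13.59, 13.69 and 14.46, and at T2 14.32, 14.07, 14.05 and 14.57. All injured arrays of these 2 groups lay above the highest T0 array, the T1 group by a narrow margin. At T4 the arrays read 15.15, 15.20, 14.98 and 13.95, and at T8 15.13, 14.52, 15.17 and 14.16, again without overlap with T0.

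The log2 rise of Gfap against T0 was 0.86 ± 0.29 (SE, 4 arrays a group) at T1, 1.81-fold, with a limma adjusted p of 0.01822. It was 1.26 (2.39-fold, adjusted p = 0.001095) at T2, 1.82 (3.54-fold, adjusted p = 2.29e-05) at T4 and 1.75 (3.36-fold, adjusted p = 3.092e-05) at T8, each with an SE of 0.29. The call at T1 rested on few arrays: without T1 replicate 4 the difference was 0.66 (limma adjusted p = 0.08761), without T0 replicate 1 it was 0.70 (0.0738) and without T0 replicate 3 it was 0.75 (0.06209). The further climb from T1 to T8 was 0.89 (limma adjusted p = 0.05271), and 1.06 with scan session as a block (adjusted p = 0.0009407). In session 2 the Gfap level was above that of session 1 in 5 of 5 groups, by 0.68 on average. Within session 1 the difference from T0 was 1.097, 1.46, 1.35 and 1.75 at T1, T2, T4 and T8, and within session 2 it was 0.51, 1.05, 1.71 and 1.75.

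The pair of Gfap probes differed in how far they moved between sessions. One probe was designed on the transcript of the epsilon splice form, which has its own last exon. The sequence of this probe is shown because it differed less between the sessions. It lies at chr10:92063083-92063142 on the minus strand of rn4, the build of the array's annotation. Whether it reads that form alone or other Gfap transcripts too was not tested, and the Gfap values above are means of both probes.

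Gfap probe: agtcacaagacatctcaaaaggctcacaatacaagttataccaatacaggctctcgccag

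This probe rose by 0.69 ± 0.22 at T1 (limma adjusted p = 0.01169) and by 1.17, 1.69 and 1.66 at the later times (adjusted p of at most 0.0001021). It rose by 0.98 from T1 to T8 (limma adjusted p = 0.003663). It differed between the sessions by 0.12 on average and was higher in session 2 in 3 of 5 groups. The other Gfap probe, on the canonical transcript and printed in 10 spots, differed between sessions by 1.24 on average, with a range over groups of 0.66 to 1.87. Its T0 arrays read 12.87 and 13.39 in session 1 and 14.54 and 14.79 in session 2. For this probe the change at T1 was 1.03 ± 0.47 (limma adjusted p = 0.08135), and 0.72 ± 0.29 with scan session as a block (adjusted p = 0.04078). Both probes put Gfap higher at every time, and both gave a T1 to T8 rise past the threshold once session was a block (1.01 with adjusted p = 0.00276, and 1.11 with adjusted p = 0.01048). The cause of the session difference was not tested.

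**Figure D2:**
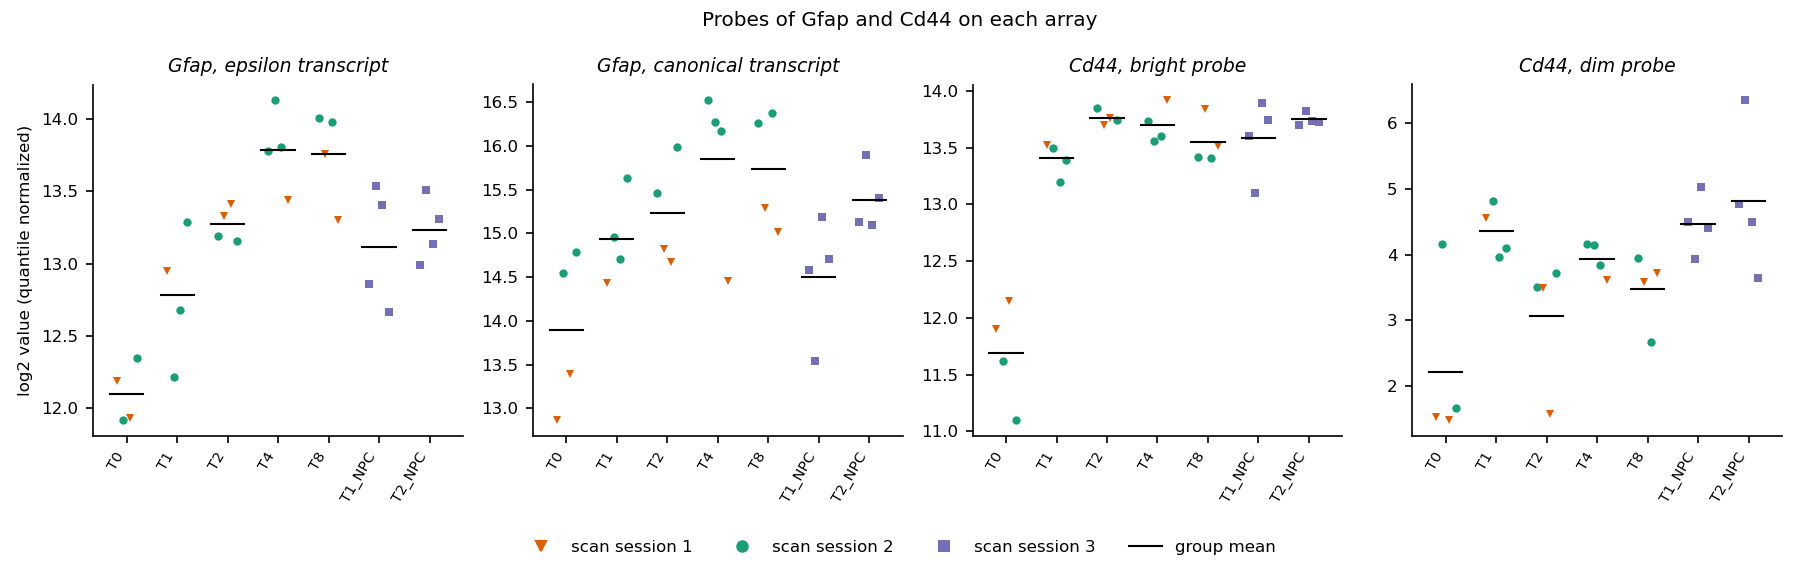
Log2 level on each of the 28 arrays of the 2 probes of Gfap and the 2 probes of Cd44, by group, with the scan session marked by symbol and colour and a bar for the group mean; the vertical axes differ between panels. The canonical Gfap probe lay higher in session 2 in 5 of 5 groups, whereas the epsilon-transcript probe did so in 3 of 5.

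Vim, the intermediate filament protein of immature and reactive astrocytes and of mesenchymal cells, showed the largest rise of the 10 genes at each time. Its T0 arrays read 11.56, 12.49, 11.54 and 11.86. The T1 arrays read 15.87, 16.42, 16.04 and 16.24, and the T8 arrays 16.02, 15.62, 16.26 and 15.81. The lowest injured array, at 15.42 in T2, was far above the highest T0 array, at 12.49, and the injured groups overlapped each other. The rise was 4.28 ± 0.23 at T1 (19.4-fold, limma adjusted p = 5.345e-13), 3.98 at T2 (15.8-fold), 4.12 at T4 (17.4-fold) and 4.06 at T8 (16.7-fold), with adjusted p of at most 2.485e-12. Within the 2 scan sessions the T1 difference was 4.32 and 4.06. The single Vim probe, shown because it carries the largest change, lies at chr17:87851390-87851449 on the plus strand of rn4.

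Vim probe: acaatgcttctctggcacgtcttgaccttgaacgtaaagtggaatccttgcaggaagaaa

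Aqp4, the water channel of astrocyte end-feet, fell at T1 and did not differ from T0 past the threshold at later times. The T0 arrays read 13.69, 13.46, 13.21 and 13.15. At T1 they read 12.62, 12.12, 12.83 and 12.18, all below the lowest T0 array. The T2 arrays read 13.59, 13.23, 13.05 and 12.99, within or just below the T0 range. The T1 fall was -0.94 ± 0.25 (1.92-fold lower, limma adjusted p = 0.002955), and within the scan sessions it was -0.83 and -0.93. The differences from T0 were -0.16 at T2 (limma adjusted p = 0.6528), 0.01 at T4 (0.9916) and 0.02 at T8 (0.9711). From T1 to T8 the Aqp4 level rose by 0.96 (1.95-fold, limma adjusted p = 0.01155), a call that was lost without T1 replicate 2 (0.86, adjusted p = 0.05191). The T1 and T2 arrays did not overlap, and their difference was 0.78 (limma adjusted p = 0.12). Of its 4 probes, 3 fell at T1, by -1.01 to -1.22, and the brightest gave -0.46 (limma adjusted p = 0.05791).

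Gja1, which encodes connexin 43 of the gap junctions between astrocytes, did not differ from T0 past the threshold at any time over all arrays, and rose from T1 to T8. Its T0 arrays spanned 14.75 to 14.97. The T1 arrays read 14.59, 14.44, 14.85 and 14.05, and the T4 arrays 15.32, 15.15, 15.28 and 15.22. The T4 and T8 arrays lay above every T0 array, and the T1 arrays overlapped them. None of the differences from T0 passed the threshold in the limma fit over all arrays: -0.42 ± 0.19 at T1 (adjusted p = 0.08441), 0.05 at T2 (0.8866), 0.34 at T4 (0.1709) and 0.21 at T8 (0.4335). Without T1_NPC replicate 2, whose Gja1 reading widens the shared error, the T1 and T4 differences were called (limma adjusted p = 0.008547 and 0.03123), and without T1 replicate 3 the T1 difference was -0.54 (0.03291). From T1 to T8 the level rose by 0.62 (1.54-fold, limma adjusted p = 0.03897), a call lost on leaving out T1 replicate 1, 2 or 4 or any 1 of the T8 arrays (adjusted p from 0.05314 to 0.1705).

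Aldh1l1, an enzyme of folate metabolism widely used as a marker of all astrocytes, fell at T1 and overlapped the T0 arrays at T2. The T0 arrays read 12.69, 13.01, 12.60 and 12.93. At T1 they read 11.85, 11.82, 11.84 and 12.27, all below T0. The T2 arrays read 12.87, 12.74, 12.56 and 12.94, and the T8 arrays 13.24, 13.15, 13.19 and 12.92. The T8 arrays overlapped T0 at the lower end only. The T1 difference was -0.86 ± 0.16 (1.82-fold lower, limma adjusted p = 9.024e-05), and within the scan sessions it was -0.79 and -0.995. The level rose from T1 to T2 by 0.83 (1.78-fold, limma adjusted p = 0.006602) and from T1 to T8 by 1.18 (2.26-fold, adjusted p = 1.638e-05). Against T0 it differed by -0.03 at T2 (limma adjusted p = 0.9159), 0.33 at T4 (0.1098) and 0.32 at T8 (0.1192, and 0.0454 with scan session as a block). Without T4 replicate 4 the T4 difference was 0.49 and was called (limma adjusted p = 0.01284).

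Glul, the glutamine synthetase that turns glutamate taken up by astrocytes into glutamine, was not called in any comparison of the time course. Its T0 arrays spanned 13.54 to 14.03 and its T1 arrays 13.72 to 14.17. The difference from T0 was 0.28 ± 0.17 at T1 (limma adjusted p = 0.1851), 0.07 at T2, 0.13 at T4 and -0.02 at T8. S100b, a calcium-binding protein of astrocytes and also of Schwann cells and some oligodendrocyte lineage cells, was near the threshold at T4. Its T0 arrays read 12.35, 12.50, 12.37 and 12.89, its T1 arrays spanned 12.09 to 12.38, and its T4 arrays read 13.11, 13.28, 12.89 and 12.45, overlapping T0. The T4 difference of 0.40 ± 0.16 (1.32-fold, limma adjusted p = 0.0462) was past the threshold over all arrays and fell short of it on leaving out most single arrays, with scan session as a block (0.35, adjusted p = 0.05443) and on the undisputed arrays (0.09, adjusted p = 0.7664). The T1 difference was -0.30 (limma adjusted p = 0.1268). From T1 to T8 S100b rose by 0.58 (1.50-fold, limma adjusted p = 0.01726), a call lost without T1 replicate 1 (0.54, adjusted p = 0.05367).

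Lcn2, a secreted carrier of iron-binding siderophores made by reactive astrocytes and neutrophils, rose at all 4 times. Its T0 arrays read 7.89, 7.13, 6.41 and 7.36. The T1 arrays read 11.81, 10.42, 10.82 and 10.21, the T2 arrays 9.07, 10.09, 9.91 and 8.59, and the T8 arrays 9.23, 9.90, 11.40 and 9.60. Every injured array was above every T0 array, and the T1 arrays lay above all T2 arrays. The rise was 3.62 ± 0.50 at T1 (12.3-fold, limma adjusted p = 2.858e-06), 2.22 at T2 (4.65-fold, 0.0009277), 2.38 at T4 (5.20-fold, 0.0005196) and 2.83 at T8 (7.12-fold, 7.01e-05). The drop from T1 to T2 was -1.40 and did not pass the threshold (limma adjusted p = 0.1824). Within the scan sessions the T1 difference from T0 was 4.66 and 3.24.

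Serpina3n, a secreted inhibitor of serine proteases, was highest at 1 week among the time-course groups. Its T0 arrays read 7.22, 6.62, 6.49 and 7.32. The T1 arrays read 10.87, 10.00, 10.52 and 9.46, the T2 arrays 8.83, 9.27, 9.15 and 8.83, and the T8 arrays 9.09, 8.00, 8.39 and 8.57. Each injured group lay wholly above T0, and the T1 arrays lay wholly above T2. The T1 rise was 3.30 ± 0.86 (9.86-fold, limma adjusted p = 0.002923). The differences at T2, T4 and T8 were 2.10 (limma adjusted p = 0.05479), 2.08 (0.06024) and 1.60 (0.1511). The SE of 0.86 came from the transplanted groups, whose arrays spanned 9.65 to 16.12 in T1_NPC and 9.56 to 12.52 in T2_NPC. With the 20 time-course arrays alone the SE was 0.31, and all 4 differences were called (limma adjusted p = 1.529e-07, 2.627e-05, 3.651e-05 and 0.0003868, in order of time). In that fit the drop from T1 to T8, -1.70, also passed (adjusted p = 0.001149), whereas over all arrays it did not (0.2672).

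The upstream 250 bases of the members were read for the palindrome TTCNNNGAA, the short form of the site bound by STAT factors, because STAT3 is a known driver of astrocyte reactivity. Of the 12 windows that RefSeq gives for the 10 genes (GRCr8; Glul and Aqp4 have 2 each), 1 held it, that of Serpina3n, as did 2566 of all 33469 windows (7.667%). A single search covers both strands, since the letters read the same on each. The match, in capitals, lies in the window chr6:129088142-129088391 on the plus strand.

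Serpina3n upstream window: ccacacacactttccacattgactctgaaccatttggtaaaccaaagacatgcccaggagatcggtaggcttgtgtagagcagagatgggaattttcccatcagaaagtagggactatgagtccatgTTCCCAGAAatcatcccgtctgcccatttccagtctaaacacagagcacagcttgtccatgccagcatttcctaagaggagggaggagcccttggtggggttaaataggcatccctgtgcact

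The longer palindrome of NFI factors, which take part in astrocyte development (TTGGC and GCCAA set 5 bases apart), was in 0 of the 12 member windows and in 12 of all windows (0.03585%). A match of letters is a description of the window and not a binding site.

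Cd44, the hyaluronan receptor found on reactive astrocytes and on leukocytes, rose at all 4 times. Its T0 arrays read 6.72, 7.89, 6.82 and 6.39. The T1 arrays read 9.05, 9.16, 8.58 and 8.75, the T4 arrays 8.95, 8.85, 8.72 and 8.76, and the T2 arrays 8.68, 8.60, 7.67 and 8.73. All T1 and T4 arrays lay above T0, and 1 T2 array fell below the highest T0 array. The rise was 1.93 ± 0.30 at T1 (3.81-fold, limma adjusted p = 1.325e-05), 1.47 at T2 (2.76-fold, 0.0003529), 1.87 at T4 (3.65-fold, 2.764e-05) and 1.56 at T8 (2.95-fold, 0.0001816). The Cd44 values above average 2 probes. The brighter rose by 1.71, 2.07, 2.01 and 1.85 at the 4 times. All T2 arrays of the brighter probe (13.70 to 13.85) lay above its T0 arrays (11.10 to 12.15). The dimmer was well above background on 1 T0 array, 3 T1 arrays, 0 T2 arrays, 2 T4 arrays and 1 T8 array. Its differences from T0, and its part in the averages above, rest mostly on readings near background and are not exact. In order of time its differences were 2.15, 0.86, 1.73 and 1.27. Its sequence is shown because it is the only probe of the 10 genes near the limit of detection, and because the array's annotation places its 60 bases across an intron, between chr3:88044582-88048264 on the minus strand of rn4.

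Cd44 probe: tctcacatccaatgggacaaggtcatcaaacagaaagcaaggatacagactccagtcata

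Among the injured groups, 4 genes differed over T1, T2, T4 and T8 in limma's F test, which called 7.73% of all features: Aldh1l1 (adjusted p = 2.99e-05), S100b (0.008664), Aqp4 (0.02898) and Gja1 (0.04865). These 4 are markers of the resting astrocyte, as is Glul, which was not called (F test adjusted p = 0.7114). Gfap missed the threshold (limma adjusted p = 0.09113), and Lcn2 (0.2582), Serpina3n (0.6292), Cd44 (0.7163) and Vim (0.8771) were further from it. The F test had no session term and took its error from all 28 arrays, transplanted ones included. Both Gfap probes rose from T1 to T8 with session as a block (limma adjusted p = 0.00276 and 0.01048). Fitted on the time-course arrays alone, Serpina3n fell from T1 to T8 (limma adjusted p = 0.001149). Over neighbouring times, 1 gene rose from T1 to T2 (Aldh1l1), where 0.815% of all features rose. From T2 to T4 none of the 10 was called by limma, against 0.0761% of all features, and 2 passed at an unadjusted p under 0.05. From T4 to T8 none was called, against 0.0902%, and 0 passed unadjusted. From T1 to T8, 4 rose (Aldh1l1, Aqp4, Gja1 and S100b) and 0 fell, where 5.45% of features rose and 4.42% fell. Calls were fewer over all features too on fewer arrays: on the undisputed arrays 1 of the 10 genes was called against 3.84% of features, and on the arrays of scan session 1 alone 0 were against 1.50%.

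**Figure D3:**
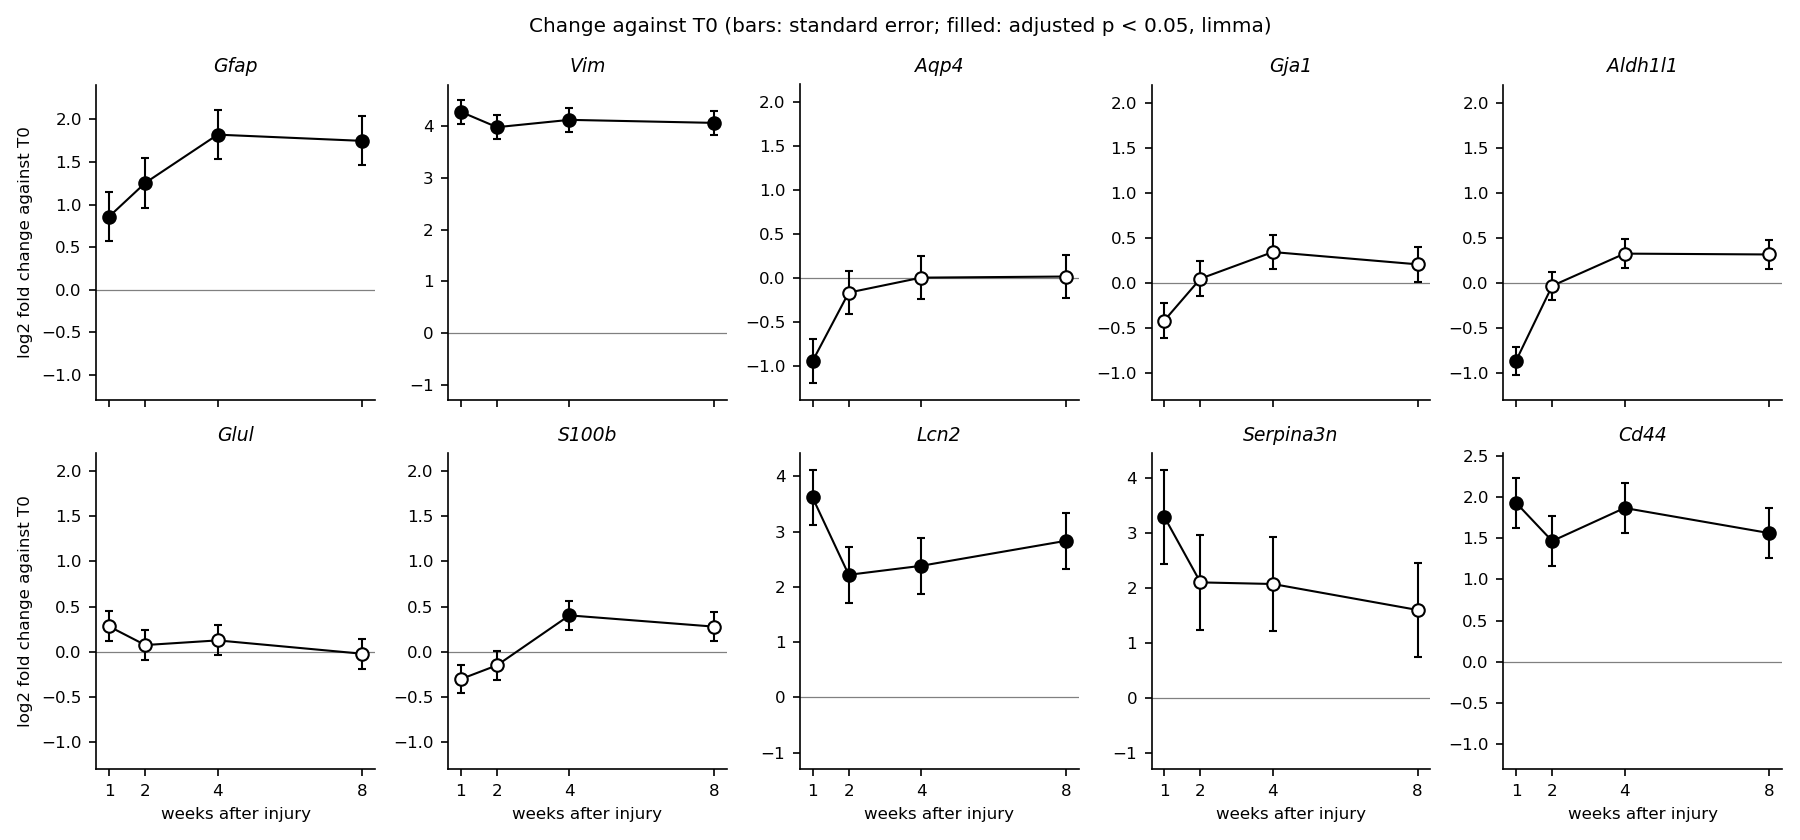
Log2 difference from T0 of each of the 10 genes at 1, 2, 4 and 8 weeks after contusion, with bars of 1 standard error from the limma fit over all arrays and filled points where the gene was called. Aqp4 and Aldh1l1 lay below 0 at 1 week (-0.94 and -0.86) and near or above 0 later, while Vim stayed close to 4 throughout.

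Other genes of astrocytes were read from lists of resting-cell and reactive-cell genes. Of 22 further genes of astrocyte identity, 21 were on the array. At T1, 14 fell and 0 rose (median -0.66), at T2, 11 fell and 1 rose (-0.35), at T4, 8 fell and 2 rose (-0.06), and at T8, 6 fell and 4 rose (-0.07), against median differences of all features between -0.10 and -0.04. Of all features, 25.1% fell and 19.1% rose at T1, and at T8 21.5% fell and 18.2% rose, shares close to those of the list at T8. From T1 to T8, 12 of the 21 rose and 0 fell, with a median of 0.51 where that of all features was 0.00. On the undisputed arrays the number called against T0 was 9 in T2 and 6 in T8, where 33.6% and 37.5% of all features were called. On the arrays of session 1 alone it was 9 and 7. The time-course arrays are the same 8 in both settings, with 1 array each in T1 and T4.

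The largest falls at T1 were those of Gjb6 (connexin 30), at -2.59 ± 0.29 (limma adjusted p = 1.285e-07), Slc7a10 (a transporter of D-serine and small neutral amino acids), at -2.36 ± 0.44 (0.000119), and S1pr1 (a sphingosine-1-phosphate receptor), at -1.41 ± 0.16 (2.219e-07). Gjb6 fell from a mean of 14.26 ± 0.20 (SD, n = 4 arrays) in T0 to 11.67 ± 0.81 in T1 and reached 13.85 ± 0.24 in T8, a rise of 2.17 from T1 to T8 (limma adjusted p = 1.487e-05). Slc7a10 was lower than in T0 at T8 as well, by -3.00 (limma adjusted p = 7.422e-06). Also lower at T8 were Dio2, the enzyme that activates thyroid hormone (-1.74, limma adjusted p = 0.0006041), and S1pr1 (-1.34, 6.227e-07). The largest rises at T8 were those of Fabp7, a fatty acid binding protein of radial glia and astrocytes (1.07, limma adjusted p = 3.43e-05), Mlc1, a membrane protein of end-feet (0.63, 0.01317), and Nfib, a transcription factor of glial development (0.52, 0.001599).

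Of 31 further genes of reactive astrocytes, 25 rose and 2 fell in T1. In T2, 27 rose and 1 fell, in T4, 25 rose and 1 fell, and in T8, 26 rose and 1 fell. The share of all features was 19.1% rising and 25.1% falling in T1, and in the later groups 17.5% to 18.2% rising and 21.0% to 22.2% falling. The list genes came from 3 lists, of genes shared by reactive astrocytes in general, of those linked to inflammation and of those linked to ischaemia. In the shared list of 11 genes, 10 rose and 1 fell at T1 and all 11 rose at T2, T4 and T8, with medians of 1.83, 1.91, 1.94 and 2.10. In the inflammation list of 8 genes, 6, 5, 5 and 5 rose and 1 fell at each time. In the ischaemia list of 12 genes, 9, 11, 9 and 10 rose and 0 fell, and 1 of the 12 was not well above background in any group. The largest rises at T1 were those of Timp1, an inhibitor of matrix metalloproteinases (4.10 ± 0.17, limma adjusted p = 7.745e-15), Cd14, a receptor for bacterial lipopolysaccharide also found on macrophages (4.02, 9.441e-13), and Emp1, an epithelial membrane protein (3.77, 9.722e-12). The 2 falls at T1 were those of Amigo2, an adhesion protein (-0.47, limma adjusted p = 0.009333), and Synm, the intermediate filament protein synemin (-0.44, 0.02843). At T8 the largest rises were those of Serping1, the inhibitor of complement component C1 (4.03, limma adjusted p = 2.749e-15), Cxcl10, a chemokine (3.61, 1.169e-05), and Aspg, an asparaginase (3.53, 6.426e-10), and the fall was that of Amigo2 (-0.42, 0.02078).

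**Figure D4:**
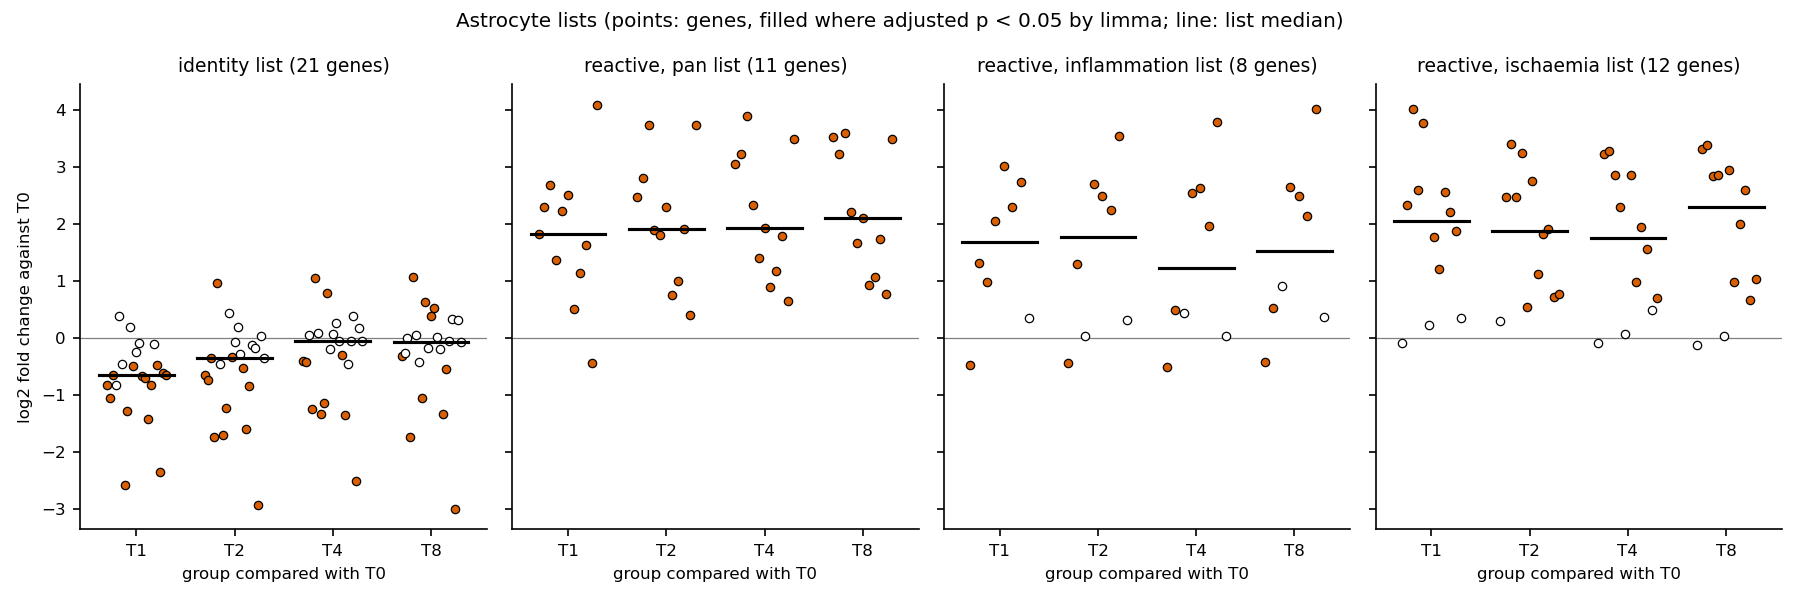
Log2 difference from T0 of each gene of the identity list and the 3 reactive lists at 1, 2, 4 and 8 weeks, with 1 point a gene and a line at the list's median; filled points were called. The identity genes lay mostly below 0 at 1 week (median -0.66) and around 0 at 8 weeks (-0.07), and the shared reactive genes lay mostly above 0 throughout.

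Markers of other cell types were read in the same comparisons, where 17.5% to 19.1% of all features rose and 21.0% to 25.1% fell. Of 8 markers of microglia and macrophages, 8 rose at each time (median 2.51 at T1 and 2.01 at T8), and their summed level went from 15.22 to 15.48 in T0 to 18.03 to 18.31 in T1. Of 6 markers of fibroblasts and pericytes, 6, 6, 5 and 6 rose, with a summed level of 12.91 to 13.46 in T0 and 16.54 to 17.36 in T1. Of 5 Schwann cell markers, 5 rose at each time, and the summed level went from 13.52 to 13.74 in T0 to 15.69 to 16.16 in T8. Of 5 neutrophil markers, 3, 2, 1 and 1 rose, with a summed level of 6.41 to 7.51 in T0 and 9.09 to 9.81 in T1. Of 5 neuronal markers, 5 fell at each time, and of 6 oligodendrocyte markers, 4, 5, 3 and 5 fell. Of 5 endothelial markers, 3, 1, 1 and 2 rose, and of 4 ependymal markers, 0, 1, 3 and 3 rose and 2, 1, 0 and 1 fell. Counts of 1 in these short lists are near the shares of all features. From T1 to T8, where Aldh1l1, Aqp4, Gja1, S100b and 12 of the 21 identity genes rose, 4 Schwann cell and 4 ependymal markers rose as well. Of all features, 5.45% rose there. The part of these cells in the levels of Vim, Cd44, Lcn2, Serpina3n, S100b and the reactive lists was not tested.

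Transplantation was read against the injured group of the same week. None of the 10 astrocyte genes was called by limma in T1_NPC against T1, where 5.45% of all features rose and 6.46% fell, and 2 passed at an unadjusted p under 0.05. None was called in T2_NPC against T2, where 4.62% rose and 4.85% fell, and 3 passed unadjusted. The difference between the 2 transplantation effects was called for none of the 10, against 0.299% of all features, and 1 passed unadjusted. On the undisputed arrays, which hold no T1_NPC array and compare 4 T2_NPC arrays with 2 T2 arrays, 20.9% of all features were called and 4 of the 10 genes were higher in T2_NPC: Vim by 0.71 (limma adjusted p = 0.005741), Glul by 0.65 (0.01425), Aldh1l1 by 0.43 (0.03252) and S100b by 0.43 (0.03933). Those 2 T2 arrays were scanned in session 1.

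Serpina3n had the largest difference after transplantation and the widest spread. The T1_NPC arrays read 10.97, 16.12, 12.57 and 9.65 against T1 arrays of 10.87, 10.00, 10.52 and 9.46. The difference of 2.11 ± 0.86 (limma adjusted p = 0.1116) was 0.85 ± 0.63 without T1_NPC replicate 2 (adjusted p = 0.4612) and 3.00 without T1_NPC replicate 4 (adjusted p = 0.01861). The T2_NPC arrays read 12.27, 9.56, 9.70 and 12.52, and all lay above the T2 arrays of 8.83 to 9.27. That difference was 2.00 ± 0.86 (limma adjusted p = 0.151), and 0.02855 was the adjusted p without T1_NPC replicate 2, whose reading enters the shared error.

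T1_NPC replicate 2 lay below the other 3 arrays of its group for 4 of the 10 genes (Gfap, Aqp4, Gja1 and Cd44), above them for 3 (Glul, Lcn2 and Serpina3n) and among them for 3. Its Gja1 level was 13.14 where the other arrays read 14.25 to 14.34, and its Aqp4 level was 10.94 where they read 12.16 to 12.59. The difference of Gja1 between T1_NPC and T1 was -0.48 (limma adjusted p = 0.1043) with this array, -0.19 (0.4242) without it and -0.63 (0.04656) without T1 replicate 4, and that of Aqp4 was -0.40 (0.3115) and -0.03 (0.9448). The summed level of the fibroblast and pericyte markers ranged from 14.90 to 17.26 over the T1_NPC arrays, against 16.54 to 17.36 in T1. That of the ependymal markers ranged from 11.67 to 12.64, and all 4 T1_NPC arrays lay below the T1 arrays of 12.77 to 13.04. Of the 4 ependymal markers, 1 fell in T1_NPC, where 6.46% of all features fell. Without replicate 2, 1 fell as well, where 8.51% of all features were called.

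In T2_NPC the S100b arrays read 12.77, 12.88, 12.88 and 12.83, all above the T2 arrays of 12.25, 12.61, 12.21 and 12.46, a difference of 0.46 ± 0.16 (limma adjusted p = 0.06739). Of the 6 oligodendrocyte markers, 2 rose in the same comparison (list median 0.38), and their summed level was 18.43 to 18.56 in T2_NPC against 17.95 to 18.26 in T2, without overlap. Of the other lists, 1 marker of microglia and macrophages and 1 of endothelium rose in T2_NPC. Their summed levels also lay wholly above T2, at 18.10 to 18.29 against 17.99 to 18.07 and 13.75 to 14.35 against 13.46 to 13.68. The ependymal sum lay wholly below T2, at 13.31 to 13.55 against 13.57 to 14.08. The part of any of these cells in the S100b level was not tested. The Aldh1l1 arrays, 12.96 to 13.18, also lay above those of T2 (0.30, limma adjusted p = 0.2508). With Serpina3n, 3 of the 10 genes were without overlap in this comparison. The share of all features without overlap was not counted here, so nothing particular to these genes can be read from it. Cd44 differed by 0.86 (limma adjusted p = 0.07209), and its probes parted. The dimmer probe was not well above background on any T2 array (1.57 to 3.72) and was so on 3 T2_NPC arrays. Its T2_NPC arrays read 4.78, 6.35, 4.495 and 3.64, the last not well above background and within the T2 range. Its difference of 1.74 (limma adjusted p in the fit of single probes = 0.04559) thus rests on readings near background and is not exact. The brighter probe differed by -0.02 (0.9735). The Glul probes also parted: one differed by 0.66 in T1_NPC and 0.58 in T2_NPC (limma adjusted p = 0.05041 and 0.09352), the other by -0.21 and 0.09 (0.2802 and 0.7271). Gfap differed by -0.05 in T1_NPC (limma adjusted p = 0.9452) and 0.06 in T2_NPC (0.9407), with an SE of 0.29 in both.

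**Figure D5:**
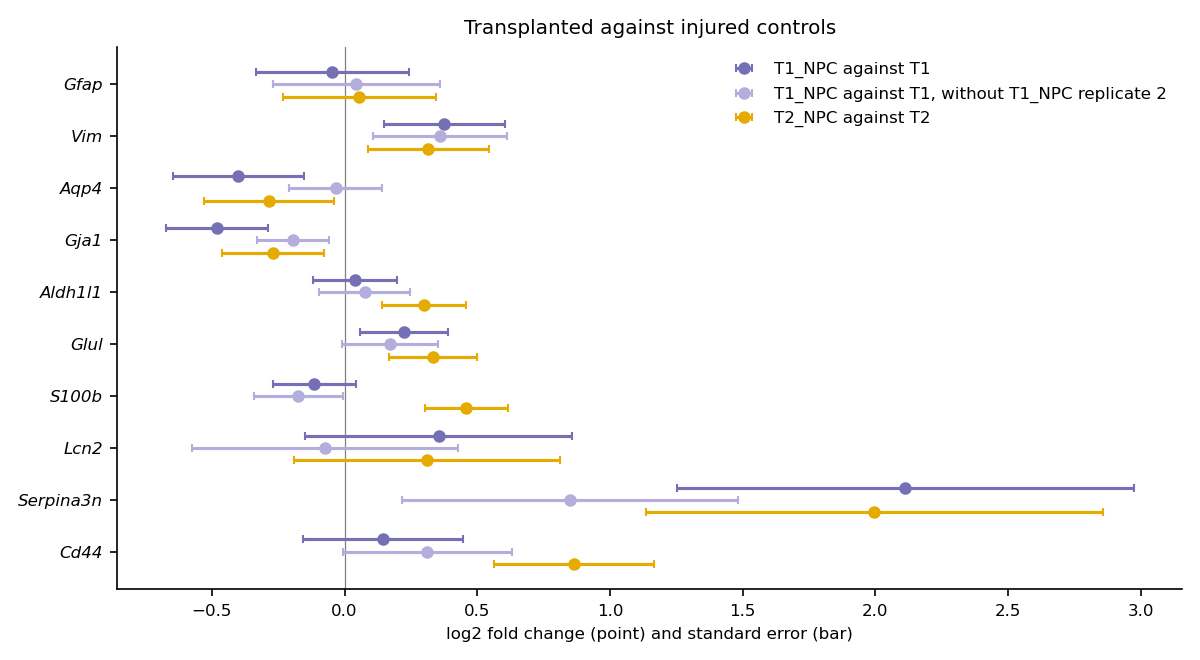
Log2 difference of each of the 10 genes between transplanted and injured cords of the same week, for T1_NPC against T1 with and without T1_NPC replicate 2 and for T2_NPC against T2. Bars are 1 standard error from limma, fitted over all arrays or, for the series without T1_NPC replicate 2, over the remaining arrays. No gene was called in the comparisons shown, and Serpina3n had the largest differences (2.11, 0.85 and 2.00) and the widest bars.

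In T1_NPC against T1, 5.45% of all features rose and 6.46% fell. Of the 31 further reactive genes, 6 rose and 0 fell in that comparison. They were Steap4, a metalloreductase (1.20 ± 0.26, limma adjusted p = 0.004054), Clcf1, a cytokine of the interleukin 6 family (1.17, 0.002133), Fbln5, an extracellular matrix protein (0.75, 0.01131), Sphk1, a sphingosine kinase (0.75, 0.03799), S1pr3, a sphingosine-1-phosphate receptor (0.73, 0.002731), and Osmr, the oncostatin M receptor (0.58, 0.04371). Without T1_NPC replicate 2, 4 of the 31 rose, where 8.51% of all features were called. Of the 21 identity genes, Ntsr2, a neurotensin receptor, fell by 0.70 (limma adjusted p = 0.02649), and 0 were called without that array. In T2_NPC against T2, 4.62% of all features rose, and 1 of the 31 reactive and 1 of the 21 identity genes rose, near that share. The reactive gene was Stat3, the transcription factor named above (0.41 ± 0.11, limma adjusted p = 0.0228). The identity gene was Fgfr3, a receptor of fibroblast growth factors (0.94 ± 0.25, limma adjusted p = 0.01774). With slide as a random block neither was called (limma adjusted p = 0.07435 for Stat3 and 0.06259 for Fgfr3), and of the T1_NPC calls those of Osmr (0.1223), Sphk1 (0.09768) and Ntsr2 (0.07729) were lost. Stat3 also missed the threshold with 75th percentile scaling (0.33, limma adjusted p = 0.0569), and its probes differed, one by 0.84 (0.00442) and the other by -0.03 (0.8927).

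After the group means were removed, some of the 10 genes still varied together over the 28 arrays, which share slides, sessions and animals. Of 45 pairs, 8 had a correlation above 0.5, and the median was 0.04. The highest was that of Aqp4 and Gja1, both of the end-feet and networks of astrocytes, at 0.83, and it was 0.55 without T1_NPC replicate 2. Gfap and Aldh1l1 reached 0.78, and S100b and Aldh1l1 0.72, and without that array and with session means removed as well these were 0.58 and 0.68. Gfap and Vim reached 0.62, and 0.05 in the latter setting. In that setting Vim and Glul went from 0.68 to 0.03, and Vim and Aldh1l1 from 0.60 to 0.21. Gfap and S100b went from 0.59 to 0.48, and Gfap and Glul from 0.54 to -0.11. Aqp4 and Gja1 stood at 0.56 there, and Vim and Cd44 went up from 0.44 to 0.63. Serpina3n ran against Gja1 (-0.61) and Aqp4 (-0.58) over all arrays, and at -0.03 and 0.00 without T1_NPC replicate 2. The features whose level over the 28 arrays was most like that of Gfap, by Pearson correlation among 12314 features with a current gene symbol, were Mall (0.927), Pld2 (0.904) and Cyp27a1 (0.902). Among those most like Aldh1l1 were Msx2 (0.941) and Casq2 (0.913), and those most like Lcn2 were Pram1 (0.901), Pold3 (0.892) and Sfrp1 (0.871).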

How the data were processed

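RNA from 28 rat spinal cords was hybridised to single-colour Agilent arrays. The authors deposited a table of log2 values, quantile normalized between arrays, and scanner outputs with spot intensity, background and 0 or 1 flags (other values) from Feature Extraction 10.7.1.1. Replicate spots, then probes of a gene, were averaged into 35469 features, and group means were fitted with limma 3.58.1 (R 4.3.3) over all 28 arrays, without covariates, at a Benjamini-Hochberg adjusted p under 0.05. Quantile normalization forces arrays to 1 distribution, so a shift shared by most genes is not seen. Scanner outputs were assigned to samples by rank order of their intensities against the table. Alternatives covered normalization, background (normexp with offset 50, run on the median signal since the mean signal was not in all outputs used here), probe choice, sample assignment, slide, session, replicate block and single arrays left out. Named list genes were the 3 largest called rises and falls at T1 and T8 and all called after transplantation. One feature of like pattern is not reported here. The members and lists were chosen with earlier results of these data known. The fit was tested on simulated data. The number of arrays limits the precision. No column of the authors' own comparisons was used.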

Additional observations from a re-analysis of the deposited data

Results flagged for a closer look

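Within the 7 groups of 4 arrays, 70 sets of values of the 10 astrocyte genes were examined for 1 array far from the other 3, by the gap to its nearest neighbour over the whole range of the group, and 8 passed Dixon's critical value for groups of this size. Chance gives about 1 in 20. In T1, Gfap was highest in replicate 4 (14.46 against 13.69, gap share 0.8791), as was Aldh1l1 (12.27 against 11.85, 0.9165), and Glul was lowest in replicate 1 (13.72 against 14.14, 0.9325). Aldh1l1 was lowest in T4 replicate 4 (12.66 against 13.25, 0.8974). T1 replicate 1 and T4 replicate 4 were the only session 1 arrays of their groups. Glul and Aldh1l1 were lower in session 1 in 5 of 5 groups, by 0.41 and 0.30 on average. The part of the session in these flags was not tested. Cd44 was lowest in T2 replicate 3 (7.67 against 8.60, 0.8753) and in T8 replicate 3 (8.04 against 8.62, 0.8521). On these Cd44 arrays the dimmer probe read 1.57 and 2.67, not well above background. The brighter Cd44 probe read 13.76 in T2 replicate 3, within the T2 span of 13.70 to 13.85. It read 13.41 in T8 replicate 3, where the nearest T8 array read 13.42. In T1_NPC, Vim was lowest in replicate 1 (16.33 against 16.56, 0.8976) and Gja1 in replicate 2 (13.14 against 14.25, 0.9296).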

How the results depend on the processing

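The counts of astrocyte genes called at T1, T2, T4 and T8 against T0 stayed within 1.5 times of 7, 4, 5 and 4 under the alternatives run, except with scanner outputs under their deposited samples and a 2-fold minimum (4 at T1). With deposited samples, every count of the astrocyte, identity and reactive genes was 0, and called or near-called log2 differences turned sign: Aqp4 0.0505, Gja1 0.19 and Serpina3n -0.37 at T1, Serpina3n -1.01 at T2, -0.48 at T4 and -0.38 at T8, S100b -0.13 at T4, and Gja1 0.42 in T1_NPC against T1. On the undisputed arrays, 7, 6 and 6 identity genes were called at T1, T4 and T8, 0 astrocyte genes from T1 to T2, 1 from T1 to T8 and 1 in the F test, and in T2_NPC 4 astrocyte, 5 identity and 7 reactive genes. The undisputed arrays hold 1 array each of T1 and T4, and 37.5% of all features were called there in T8 against T0. In T2_NPC, 1 astrocyte gene was called with quantile-normalized scanner signals, with normexp and with the compared groups only. Of all 35469 features, 3437, 3599 and 2731 were called in these settings, a share near that of the astrocyte genes. The identity count there was 2 with 75th percentile scaling, normexp or the brightest probe and 0 with slide as a random block. The reactive count there was 2 with normexp and 0 with 75th percentile scaling, single probes, the brightest probe or the slide block. In T1_NPC, 75th percentile scaling called 1 astrocyte gene (Gja1, -0.58), where 7397 of the 35469 features were called. The brightest probe called 2 identity genes there, the compared groups only 0 identity and 2 reactive genes, and the slide block 0 identity genes. From T1 to T2, 2 astrocyte genes were called with time-course arrays only and 0 with the compared groups only, against 833 and 115 of all features. A 2-fold minimum left 0 astrocyte genes from T1 to T2, 1 from T1 to T8, identity counts of 5, 5, 6 and 5 at T1 to T8 and 0 in both transplanted groups, and 2 and 0 reactive genes in T1_NPC and T2_NPC. On session 1 alone, an alternative chosen after seeing the data, 7 and 5 identity genes were called at T1 and T4, and 0 astrocyte genes from T1 to T2, from T1 to T8 and in the F test.

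Leaving out 1 array at a time gave 1 to 3 astrocyte genes from T1 to T2 (3 without T1_NPC replicate 2), 0 to 1 from T2 to T4 (1 without T4 replicate 4), 2 to 5 from T1 to T8 (2 without T1 replicate 1), 0 to 1 in each transplanted group and 2 to 4 in the F test, 0 to 2 identity genes in each transplanted group, and 0 to 3 reactive genes in T2_NPC. Scaling to the 75th percentile moved the median of all features by -0.27 at T1, -0.16 at T4, 0.12 from T1 to T2, 0.15 from T1 to T8, 0.11 in T1_NPC and 0.14 for the difference of the transplantation effects. The share of called features that were higher then went from 45.75% to 71.34% in T1_NPC, 55.21% to 65.9% from T1 to T8, 55.05% to 67.89% from T1 to T2, 66.67% to 40% from T2 to T4 and 57.55% to 95.19% for the difference. The causes were not tested. Slide and session as fixed blocks could not be estimated for the transplantation comparisons.

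Replicate numbers paired no samples: same-numbered samples had correlations of -0.34 to 0.30 after removal of group means, and 5 of 28 correlated best with their own number. With the replicate block no count moved by over 1.5 times, with 3 genes in the F test against 4 without it.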
